A study of Mus musculus with 4 samples.

Results

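The regions described here were the sites in or near genes at which chromatin gave an ATAC-seq peak in passage 8 (P8) chondrocytes and in no passage 0 (P0) library. Peaks of 4 libraries that shared at least 1 bp were merged into sites on chromosomes 1 to 19 and X, and 100581 of the 170325 sites overlapped a protein-coding gene or lay within 1 kb of its ends in the RefSeq annotation of GRCm38. A P8-only site had a peak in both P8 libraries and in neither P0 library, and 1418 sites met this rule, which was 1.41% of the sites in or near genes. They fell in or near 1247 of 21627 protein-coding genes (5.77%). The mirrored P0-only sites, with a peak in both P0 libraries and in neither P8 library, numbered 16727 (16.6%) and fell in or near 7467 genes (34.5%). The P8-only sites were chosen by measured values, namely the presence of a peak in both P8 libraries and its absence from both P0 libraries, so their number and their P8 signal are given as a description and were not tested. The number rested on single libraries, apart from P0 library B, without which the rule kept 1661 sites in 1443 genes. Without P0 library A it kept 3631 sites in 2763 genes. With P8 library B as the only P8 library it kept 5414 sites in 3633 genes, and with P8 library A as the only P8 library it kept 5264 sites in 3382 genes.

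All cells were C57BL/6 mouse chondrocytes from knee cartilage of newborn animals, kept in DMEM/F12 medium with fetal bovine serum. P0 cells had been in culture for less than 24 hours, and P8 cells had been split each time their number doubled until passage 8, a culture model of dedifferentiation. Each passage had 2 libraries, and the labels do not say whether these came from separate animals or cultures. The peak lists tell the libraries apart without replicate numbers, so they are called library A and library B. Read totals were not used here, and the lowest local background of the peak caller, a measure of depth, was 1.42 tags in P0 library A, 1.19 in its partner, and 1.02 and 0.979 for the P8 pair. P8 was thus sequenced less deeply in both libraries, and a missing peak is not an absence of reads.

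ATAC-seq uses a transposase that inserts adapters where DNA is not wrapped in nucleosomes, so that open promoters and enhancers give peaks. Enhancers lie at any distance from the start of a gene, often inside the gene body, and are bound by transcription factors that recognise short DNA motifs. AP-1, a dimer of FOS and JUN family proteins, is such a factor. It binds the letters TGANTCA, responds to growth factors, serum and stress, and is known for binding enhancers. Cartilage cells that are grown on plastic lose matrix genes such as Col2a1 and take on a fibroblast shape.

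The genome sequence was not used here, and RefSeq promoter windows, which run from 250 bases before to 50 bases after an annotated start, were the only sequence at hand. They could be read for 12 of the 1370 P8-only sites on chromosomes with such windows, or 0.876% (95% Wilson interval 0.502 to 1.52%), which touched 14 windows of 12 genes, 3 of them without a protein product. Of these 12 sites, 7 held TGANTCA in the part that lay on the window (58.3%, interval 32.0 to 80.7%). Of 714 P0-only sites on windows 33 held it (4.62%, 3.31 to 6.42%), and of 9994 sites shared by all 4 libraries 502 held it (5.02%, 4.61 to 5.47%). In bases this was 4.33 matches per kb of window covered by P8-only sites, 0.270 per kb for P0-only sites, 0.170 per kb for shared sites and 0.277 per kb over all promoter windows. The stretches covered by P8-only sites were also poorer in G and C, with 50.0% against 62.1% at P0-only and 63.4% at shared sites, and the part of this difference in the motif shares was not tested. The share was lower where a peak came from a single P8 library, with 5 of 38 sites private to P8 library A (13.2%, 5.75 to 27.3%) and 2 of 52 private to P8 library B (3.85%, 1.06 to 13.0%). When P0 library A was left out, 11 of 59 P8-only sites on windows held the letters (18.6%). Without P0 library B 7 of 15 did (46.7%). The share was 12.3% of 65 sites without P8 library A and 20.8% of 53 without P8 library B. The Wilson intervals cover counting error only, here and below, since sites of the same library are not replicates.

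The 7 stretches with the letters are printed 5′ to 3′ on the strand of the gene, because the share of sites with these letters was higher among P8-only sites than in the other classes counted. Lower case marks the part of the P8-only site that lies on the promoter window and capitals mark TGANTCA.
Ikbkg chrX:74424544-74424661 (+ strand): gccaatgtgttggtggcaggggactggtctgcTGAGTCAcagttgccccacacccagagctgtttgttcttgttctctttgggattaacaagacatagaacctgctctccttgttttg
Gzmb chr14:56262334-56262466 (- strand): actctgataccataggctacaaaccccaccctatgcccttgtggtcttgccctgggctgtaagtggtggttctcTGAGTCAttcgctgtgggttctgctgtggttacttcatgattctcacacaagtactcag
Lif chr11:4257318-4257366 (+ strand): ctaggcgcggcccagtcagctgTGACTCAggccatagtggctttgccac
Flacc1 chr1:58692592-58692685 (- strand): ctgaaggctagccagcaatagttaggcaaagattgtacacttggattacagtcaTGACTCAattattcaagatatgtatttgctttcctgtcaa
Ifi203 chr1:173942628-173942796 (- strand): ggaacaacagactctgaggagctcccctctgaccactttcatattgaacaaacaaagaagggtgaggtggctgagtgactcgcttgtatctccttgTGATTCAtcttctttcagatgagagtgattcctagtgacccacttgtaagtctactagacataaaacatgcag
Sphk1 chr11:116531742-116531937 (+ strand): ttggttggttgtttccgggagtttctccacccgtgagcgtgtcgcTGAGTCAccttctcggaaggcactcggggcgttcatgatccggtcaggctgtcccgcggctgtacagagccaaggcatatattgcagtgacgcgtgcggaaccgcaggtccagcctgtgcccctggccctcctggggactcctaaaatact
Gm31641 chr16:95259653-95259833 (- strand): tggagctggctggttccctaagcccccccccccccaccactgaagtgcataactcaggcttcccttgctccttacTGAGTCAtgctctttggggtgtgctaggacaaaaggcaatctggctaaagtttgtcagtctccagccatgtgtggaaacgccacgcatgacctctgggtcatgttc
Ikbkg encodes the regulatory subunit NEMO of the IκB kinase, which switches on NF-κB. Its match began at base -36 relative to the start site, and the summit pileup, the number of tags stacked on the highest position, was 21 tags in library A of P8 and 15 in library B. Gzmb encodes granzyme B, a protease of cytotoxic lymphocytes, with the match at -58 and pileups of 12 and 9. The match of Lif, a cytokine of the interleukin-6 family, lay at -228, and the site had pileups of 10 and 11. Flacc1 had its match at -186 with pileups of 8 and 10, and Ifi203, an interferon-inducible gene, had it at -28 with pileups of 7 and 10. Sphk1 encodes sphingosine kinase, which makes the signalling lipid sphingosine-1-phosphate, and its match lay at -124 of the later of the 2 annotated starts, with pileups of 15 and 16. The match of Gm31641, a gene listed without a protein product, was at -56 with pileups of 12 and 11. In all 7 stretches the letters occurred once, and 6 of the matches read TGAGTCA or TGACTCA, while that of Ifi203 read TGATTCA.

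The other 5 sites on promoter windows held no such match. The site with the highest −log10 q among the 12, that of the zinc finger gene Zbtb8a, is printed for contrast, with pileups of 15 and 11 and a P0 peak only 51 bp away.
Zbtb8a chr4:129378034-129378253 (- strand): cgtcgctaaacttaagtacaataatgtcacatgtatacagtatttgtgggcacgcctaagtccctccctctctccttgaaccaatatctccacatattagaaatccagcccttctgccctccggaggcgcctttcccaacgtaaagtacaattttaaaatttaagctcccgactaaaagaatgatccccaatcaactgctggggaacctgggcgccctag
The sites of the zinc finger gene Zfp583 (pileups of 11 and 13), of Arhgap1, a GTPase-activating protein (12 and 12), and of the genes Gm38684 (9 and 11) and Gm34455 (34 and 38) made up the rest. The Gm34455 site lay on a high background, with a fold enrichment of 2.20 and 2.13. Counted by whole windows and on both strands, TGANTCA was present in 9 of the 14 windows (64.3%, 38.8 to 83.7%) against 7.85% of 32585 promoter windows of the same length. Those 9 windows belong to 7 sites, because Ifi203 and Sphk1 each had 2 overlapping windows with the same match. The interval counts such windows as separate. The other 12 motifs were present in few windows or in none. TGTGGTT, bound by RUNX factors, was in 2 of 14 windows (14.3%) against 5.29% of all windows, and TTGCNNAA, bound by C/EBP factors, was in 2 of 14 against 10.9%. ACAATGG, bound by SOX factors, and the motif of IRF factors were each in 1 window (7.14%) against 3.68% and 3.45% of all windows. No window held GGGGCGG (SP and KLF factors), CCGGAAG (ETS), TGACGTCA (CRE), ACATTCC (TEAD), TGTTTAC (FOX), TAATTA (homeobox), the NF-κB motif or the CTCF motif. With 14 windows a count of 0 allows a share of up to 21.4%, and the share of all windows was 23.3% for GGGGCGG, 8.92% for CCGGAAG and at most 5.26% for the other 6. A match of letters does not show that a factor was bound.

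A microRNA gene also lay under a P8-only site. The site at chr5:138165225-138165371, in the replication helicase gene Mcm7, covered 51 of the 84 bases of the hairpin of Mir25 at chr5:138165321-138165404 (minus strand), with a pileup of 14 in both P8 libraries and the nearest P0 peak 3761 bp away. The 2 mature microRNAs are shown with the seed, bases 2 to 8, which pairs with target transcripts, in capitals.
mmu-miR-25-3p: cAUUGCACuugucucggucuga
mmu-miR-25-5p: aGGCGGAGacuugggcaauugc
All 22 bases of miR-25-3p, the arm with the seed AUUGCAC, lay inside the site. The data give no level of the microRNA.

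The rule kept only sites in or near genes and left out 1681 P8-only sites that lay outside them. Among the sites kept, most lay away from gene ends. Of the 1418 sites, 134 had a gene end no more than 1 kb away (9.45%, 95% Wilson interval 8.04 to 11.1%), against 14.7% of P0-only sites (14.2 to 15.2%) and 38.1% of the sites shared by all 4 libraries (37.6 to 38.6%). Promoter windows were touched by 0.876% of P8-only sites, 4.41% of P0-only sites and 28.5% of shared sites. Because the rule takes whole passages, the same share was counted in each library over its own peaks in or near genes that overlapped no peak of the other passage. At P8 it was 11.1% of 5264 such peaks in library A and 12.7% of 5414 in library B. At P0 it was 16.9% of 35462 in library A and 17.0% of 24870 in library B. Neither P8 value reached a P0 value. The means were 11.9% ± 1.07 (SD, n = 2) and 16.9% ± 0.105 (SD, n = 2), a difference of -5.05 percentage points (p = 0.33 in an exact permutation test, two-sided, which is the lowest that 2 libraries against 2 can give). No comparison by library could therefore pass a threshold of 0.05. When depth was matched by scaling every peak to the shallowest library, the difference was -5.01 points. Both P8 libraries were the shallower ones and this filter acts on peaks already called, so depth and passage cannot be told apart.

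**Figure D1:**
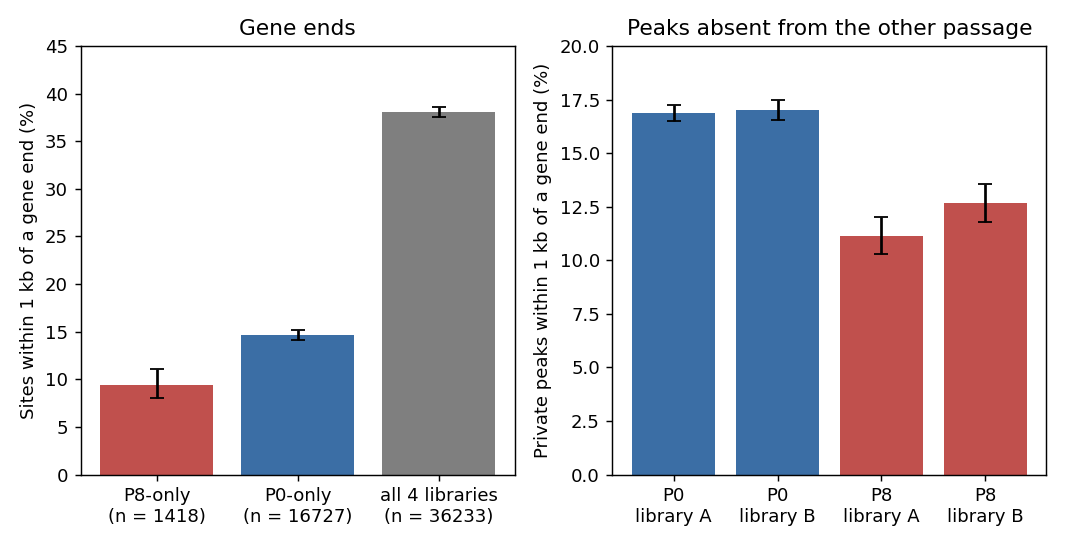
Left, the share of sites within 1 kb of a gene end (%) for P8-only, P0-only and shared sites in or near genes; right, the same share for each library's peaks that overlap no peak of the other passage. Bars are shares and lines 95% Wilson intervals; P8-only sites sit at 9.45%, and both P8 libraries (11.1 and 12.7%) sit below both P0 libraries (16.9 and 17.0%).

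The sites were also narrow. The median width was 178 bp for P8-only sites, 221 bp for P0-only sites and 499 bp for shared sites, which merge the peaks of more libraries. By library, the peaks absent from the other passage had a median width of 99 and 97 bp for the P8 pair and of 134 and 128 bp for the P0 pair, library A first. The groups did not overlap, and the means of 98.0 ± 1.41 and 131 ± 4.24 bp (SD, n = 2 each) differed by -33 bp (p = 0.33, the same exact permutation test). At matched background the difference was -36.5 bp. Both P8 libraries were also the shallower ones, and this filter acts on the summit of a peak and not on its width, so depth and passage cannot be told apart for the widths.

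P8-only sites had weak peaks. The summit pileup ranged from 6 to 53 tags in P8 library A and from 6 to 54 in P8 library B, with a median of 10 in both. At the sites shared by all 4 libraries the medians were 17 and 19 tags, so the P8-only median was 0.557 ± 0.0438 of theirs (SD, n = 2 libraries). As fold enrichment over the local background the medians were 4.59 and 4.70 at P8-only sites and 6.57 and 7.17 at shared sites. P0-only sites had medians of 4.97 in P0 library A and 5.03 in P0 library B, nearer to those of P8-only sites. The −log10 q, the significance the peak caller gave within a library, was at least 3 in both P8 libraries at 1000 sites (70.5%), at least 5 at 281 (19.8%) and at least 10 at 9 (0.635%). The same levels were reached in both P8 libraries by 95.3%, 77.2% and 42.8% of shared sites, and in both P0 libraries by 83.7%, 46.4% and 10.0% of P0-only sites. By −log10 q, P8-only sites were thus closer to the limit of detection than either class. For P0-only sites this sets deeper libraries against shallower ones, and the part of depth was not tested. Most P8-private sites did not recur. Of the 5058 sites in or near genes that P8 library A held without any P0 peak, 1418 were also in library B (28.0%), and of the 5270 in library B the same sites made up 26.9%, against 48.9% of 34175 and 74.2% of 22545 for the P0 libraries.

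Where both P8 libraries had the peak, its height was similar in the pair. Library A was higher at 583 sites, library B at 627, and 208 had the same pileup. The pileups differed by more than 2-fold at 10 sites (0.705%), and the SD of the log2 ratio of A to B was 0.37. Across the 1418 sites Pearson's r of the log2 pileups was 0.63 and Spearman's coefficient 0.53, a description over sites that share both libraries and a lower limit of 6 tags.

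**Figure D2:**
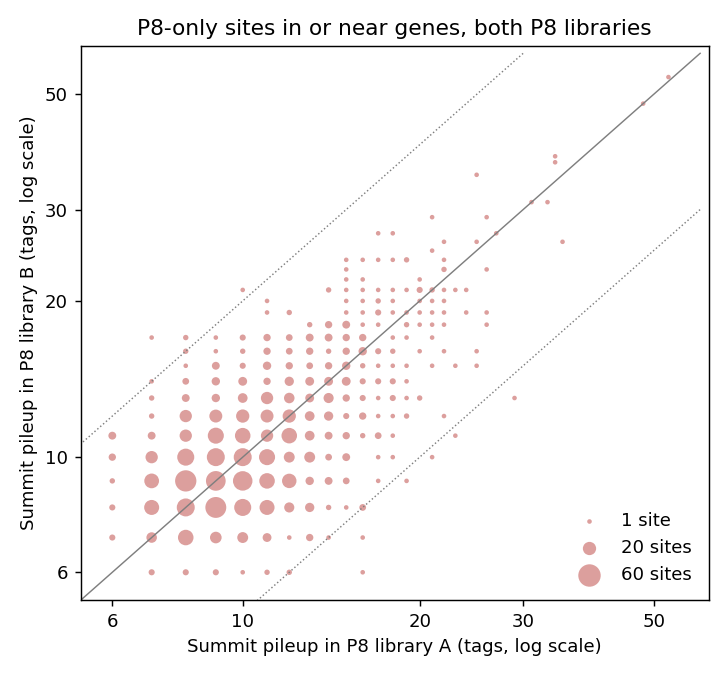
Summit pileup (tags, log scales) of the P8-only sites in P8 library A and P8 library B; the area of a point grows with the number of sites at that pair of values, the solid line marks equal pileups and the dotted lines a 2-fold difference. Most sites lie around the median of 10 tags in both libraries, and 10 sites lie beyond the dotted lines.

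The strongest site by mean −log10 q lay in Ttc28, which encodes a tetratricopeptide repeat protein of the dividing cell, at chr5:110996112-110996324. Its pileup was 26 tags in P8 library A and 18 in library B, 13.4 and 9.60 times the local background. The nearest P0 peak was 617 bp away. Second came a site in Opalin, a membrane protein gene of oligodendrocytes, at chr19:41065632-41065834 with 25 and 16 tags, followed by a site in Nkap, a nuclear regulator of NF-κB and Notch signalling, at chrX:37130524-37130640 with 25 and 15 tags. In each of these the pileup was higher in library A than in library B. The site of Gdpd5, a glycerophosphodiester phosphodiesterase, at chr7:99411978-99412252 was the most uneven of the 10 strongest, with 29 and 13 tags. Prkdc, the catalytic subunit of the DNA-dependent protein kinase that joins broken DNA ends, held a site at chr16:15671332-15671746 with 18 and 16 tags, 33.9 kb from the end of the gene. Ksr1 encodes a scaffold of the RAF, MEK and ERK kinases, and its site at chr11:79039927-79040280 had 15 and 19 tags. Macrod2, which removes ADP-ribose from proteins, had 20 and 13 tags at chr2:141371884-141372073, deep in the gene at 977 kb from its nearest end. Cldn34-ps, a claudin-like gene on chromosome X, had 19 and 13 tags, and Wdr47, a microtubule-associated protein, had 18 and 14 tags. The site in Itga8, the integrin α8 chain that binds fibronectin, tenascin and nephronectin, had 16 tags in both libraries at chr2:12264096-12264520, with the nearest P0 peak 7901 bp away. None of the 10 lay within 1 kb of a gene end.

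Among the 134 sites at gene ends, the strongest lay 544 bp from an end of Pik3r6, a regulatory subunit of phosphoinositide 3-kinase γ, at chr11:68502307-68502475 with 13 and 17 tags. Xirp1, an actin-binding gene of striated muscle, had 26 and 23 tags at chr9:120012847-120013180. A site next to Gpr22 inside Cog5, a subunit of the Golgi tethering complex, had 14 and 12 tags. Gsta1, a glutathione transferase that conjugates electrophilic compounds, had 16 and 15 tags at chr9:78229883-78230093, 576 bp from a gene end. The golgin gene Gcc2 had 12 and 17 tags, Fam214a had 21 and 18, and Nme6, a nucleoside diphosphate kinase-like gene, had 12 and 12. B430306N03Rik had 12 tags in both libraries and 2210010C04Rik, a trypsin-like gene, had 17 and 16. At each of these sites both libraries lay above the median of 10 tags for P8-only sites.

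Although no P0 peak overlapped them, many P8-only sites lay close to P0 peaks. The median gap to the nearest P0 peak was 2704 bp, with 127 sites (8.96%) within 100 bp and 464 (32.7%) within 1 kb. For P0-only sites the median gap to the nearest P8 peak was 5163 bp, and 21.3% lay within 1 kb. There were fewer P8 than P0 peaks to lie near, so the gaps are not on the same footing. When a gap of at least 1 kb to any P0 peak was required, 954 sites remained, and 4.93% of these lay at a gene end. At the inner limit of the rule, the sites of Zzef1 and Dennd2c touched a P0 peak end to end with a gap of 0 bp and had 8 and 10 and 8 and 13 tags, and that of Mtus1 had a gap of 1 bp and 9 and 9 tags. Just outside, a site of Pkd2l1 shared 1 bp with a P0 peak and had 11 and 11 tags, and one of Fam111a shared 5 bp and had 17 and 21 tags. In all, 12 sites inside the rule had a gap of at most 10 bp and 3 sites outside it an overlap of at most 10 bp. At the limit of distance to the gene, a site 1000 bp from Actg1, a cytoplasmic actin gene, had 22 and 24 tags, and one left out at 1010 bp from Itih1 had 9 and 12. Between 1 and 2 kb from a gene lay 64 further sites, and 63 of those inside the rule lay outside the gene itself.

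**Figure D3:**
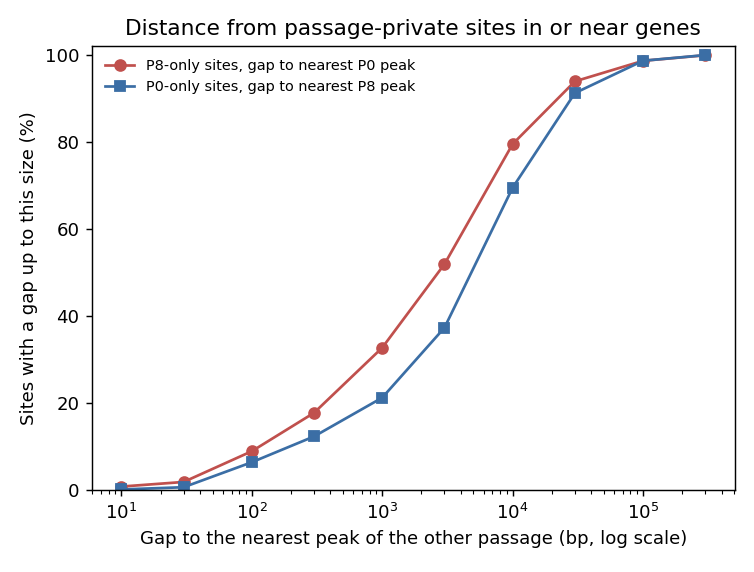
Cumulative share of sites (%) against the gap to the nearest peak of the other passage (bp, log scale), for P8-only sites (gap to P0 peaks, circles) and P0-only sites (gap to P8 peaks, squares). The curve of P8-only sites lies above that of P0-only sites from 10 bp to 30000 bp, with 32.7% against 21.3% at 1000 bp.

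The genes that held P8-only sites were long. Their median length was 87.7 kb, against 48.2 kb for genes with a P0-only site and 17.3 kb for all protein-coding genes. A P8-only site was held by 0.869% of the 7714 genes under 10 kb, by 8.07% of the 5080 genes of 30 to 100 kb and by 39.7% of the 556 genes of 300 kb or more. Per Mb of gene the density varied less, at 1.45, 1.59 and 0.945 P8-only sites in these bins. For the sites shared by all 4 libraries the density fell from 101.6 per Mb in the shortest of these genes to 14.9 per Mb in the longest. Most of the 1247 genes, 1072, held 1 P8-only site, 145 held 2, 22 held 3 and 8 held 4. Of the 1418 sites 33 were assigned to 2 genes and 1 to 10 overlapping genes. Most of these genes were open in P0 elsewhere, since 1150 (92.2%) also held a site shared by all 4 libraries and 855 (68.6%) a P0-only site. Of all protein-coding genes, which were shorter, 70.0% held a shared site and 34.5% a P0-only site, and of the genes with a P0-only site 86.7% held a shared site.

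The 8 genes with 4 P8-only sites included Kif27, a kinesin of motile cilia, Sntb1, a syntrophin that binds dystrophin, Ttc28, Lhfpl3, Pkhd1, the fibrocystin gene of polycystic kidney disease, Tmem132d and Lrmda. Next in rank, with 3, were the shortest of 22 such genes, Ctcfl, the germline paralogue of CTCF, and Per2, a repressor of the circadian clock. In Sntb1 the sites had 7 to 13 tags in either library, and the gene held no P0-only site and 3 shared sites. Per2 likewise held no P0-only site. Its sites had 10, 8 and 10 tags in library A and 8, 12 and 10 in library B, and 6 shared sites lay in the same gene. The 4 sites of Tmem132d, with 16, 16, 12 and 9 tags in library A and 12, 12, 11 and 10 in library B, were in a gene without any shared site. Ctcfl held no shared site either, but its 3 P8-only sites also lay in the overlapping Gm40011, which held 2 shared sites.

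Some P8-only sites came in short runs. Within 1 kb of each other lay 108 of the sites (7.62%), in 49 runs, and 9 runs, with at most 10 kb between neighbours, held 3 sites or more. The run of Kif27 had 4 sites in 2.48 kb on chromosome 13, with 15, 16, 20 and 22 tags in P8 library A and 14, 17, 19 and 18 in library B. These sites lay only 727, 82, 112 and 558 bp from the nearest P0 peak. Their −log10 q ran from 2.31 to 6.21 in library A and from 2.52 to 5.40 in library B. Transcription factor genes of known lineages held such runs. Sox6, a partner of SOX9 in chondrocytes, had 3 sites in 1.01 kb at chr7:115817842-115818848 with 11, 11 and 13 tags in library A and 7, 9 and 10 in library B. Erg, an ETS factor of endothelium and of articular chondrocytes, had 3 in 1.55 kb at chr16:95509095-95510642 with 13, 15 and 12 tags and with 12, 9 and 12. In the Sox6 run every site was higher in library A than in library B. The run of Mecom, a zinc finger transcription factor gene, lay in 1.04 kb on chromosome 3 with 14, 12 and 9 tags in library A and 8 in each in library B. Those of Uxs1, which makes UDP-xylose for proteoglycan chains, Itgbl1, an integrin β-like gene, Kcnab1, a potassium channel subunit, Sult2a3, a sulfotransferase, and Tmem132d spanned 0.787 to 1.77 kb, with 7 to 16 tags. The sources used here do not say how reads that map to several places were treated, and its part in these runs was not tested.

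**Figure D4:**
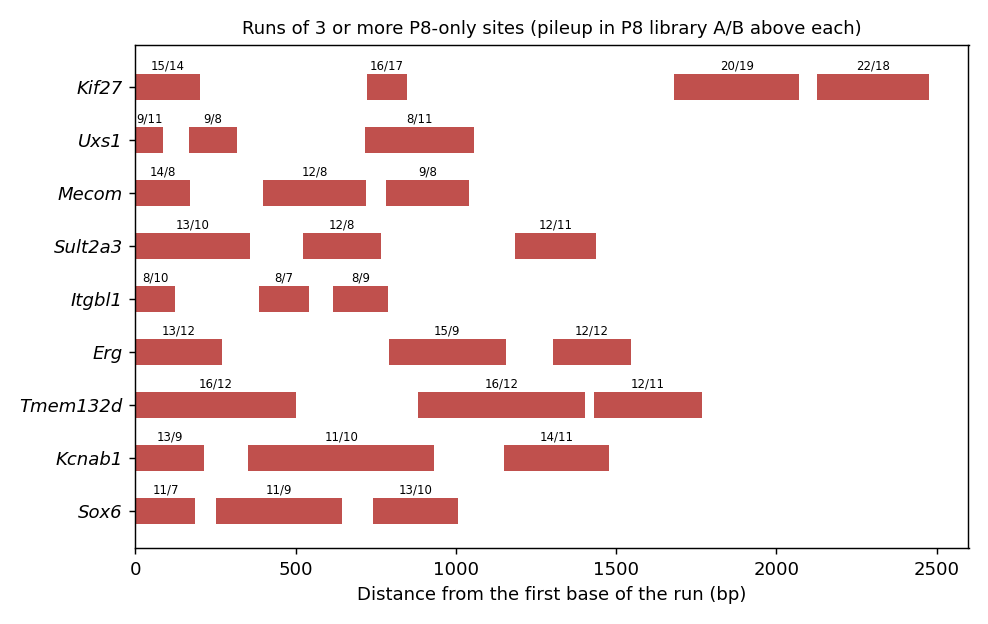
The 9 runs of at least 3 P8-only sites with at most 10 kb between neighbours; each bar is a site, placed by its distance from the first base of the run (bp), with the summit pileup (tags) in P8 library A and B above it. The longest run, that of Kif27, has 4 sites in 2.48 kb, and the others have 3 sites in 0.787 to 1.77 kb.

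In 44 of the 1247 genes (3.53%) no P0 library had any peak in the gene or within 1 kb of it, so that peaks were called there at P8 only. Among all protein-coding genes 21.3% had no P0 peak. These 44 genes held 48 P8-only sites and had a median length of 20.3 kb. The strongest were chosen after their values were seen. They were Cldn34-ps, named above, and 3 neighbouring genes of the hydroxysteroid dehydrogenase family on chromosome 3, Hsd3b4, Gm4450 and Gm10681. Hsd3b4 had 14 tags in P8 library A and 18 in library B, Gm4450 11 and 20, and Gm10681 11 and 19. The sites of the 3 genes had nearly the same width and height, and these near-identical copies can share reads, so the site they stand for is uncertain. Sult2a3, with the run of 3 sites, was also among the 44, and so were Gpr22 and the gene ends of B430306N03Rik and 2210010C04Rik.

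The study concerned the loss of the chondrocyte state, and 16 gene lists of 459 genes that bear on it were read for P8-only sites. Such a site was held by 69 of the listed genes (15.0%), against 5.77% of all protein-coding genes. The listed genes were longer, with a median of 30.6 kb, and when all their sites were taken as the base 83 of 5068 were P8-only (1.64%, 95% Wilson interval 1.32 to 2.03%), close to the 1.41% of all sites in or near genes. By list the share of P8-only sites ran from 0.680% for mesenchymal transcription factors to 2.46% for chemokines, cytokines and NF-κB genes. In each of the 16 lists the interval held the background of 1.41%. The lists were chosen with earlier results known, and without P0 library A 131 of the listed genes held a P8-only site, while 168 did without P8 library A and 151 without P8 library B.

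**Figure D5:**
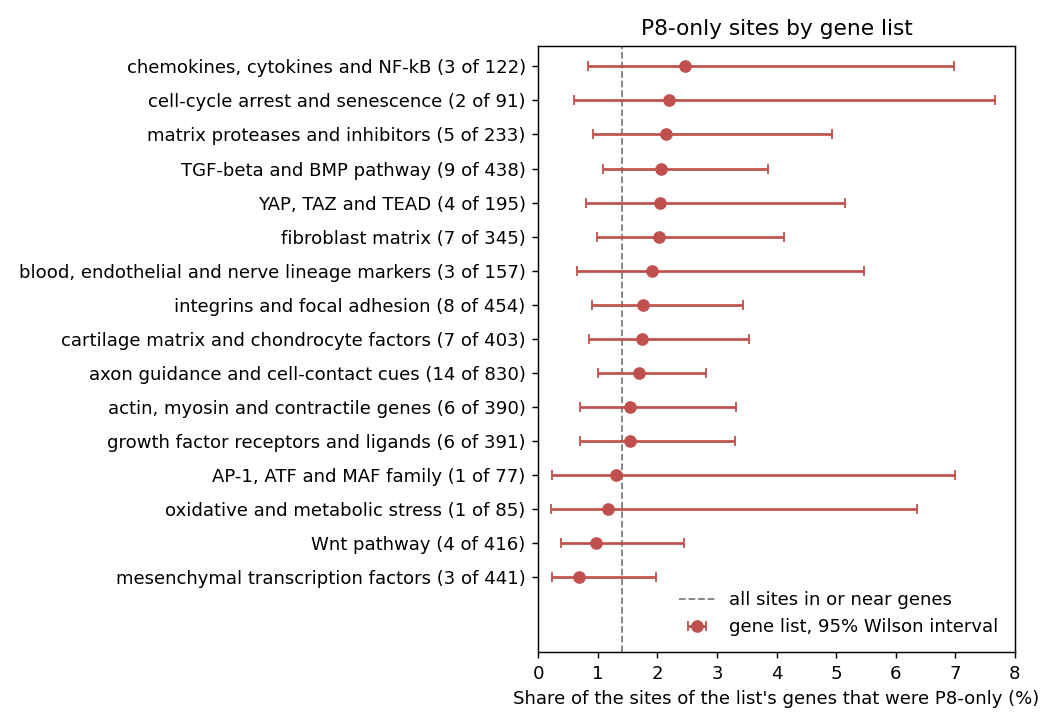
Share of the sites in or near the genes of each list that were P8-only (%), with the 95% Wilson interval; the numbers of P8-only and of all sites stand in brackets and the dashed line marks the 1.41% of all sites in or near genes. Every interval includes the dashed line.

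In the fibroblast matrix list 6 of 35 genes held 7 P8-only sites beside 54 P0-only sites. P8-only sites were 2.03% of the sites of this list, against 1.41% of all sites in or near genes. The strongest lay in Loxl3, a lysyl oxidase that cross-links collagen, at chr6:83046488-83046734 with 17 tags in P8 library A and 19 in library B and no P0 peak within 6358 bp. Col12a1, a fibril-associated collagen gene, had 2 sites of 19 and 12 tags in library A and 15 and 13 in library B. Its first site reached a −log10 q of 12.0 and 8.00. Col5a1, a fibrillar collagen gene, had 20 and 21 tags at a site only 25 bp from a P0 peak, and Efemp1, a fibulin, had 8 and 8. Loxl2 and Tnc, the tenascin-C gene, also held a site. Of 28 matrix proteases and inhibitors 5 held a site, among them Ctsk, the collagen-degrading cathepsin K, with 12 and 10 tags, the serine protease inhibitor gene Serpine2 with 8 and 10, the metalloprotease inhibitor gene Timp3 with 23 and 21, and Adamts12 with 8 and 9. The Timp3 site had a fold enrichment of only 3.38 and 3.04 and was 193 bp from a P0 peak. No P0 peak lay within 7231 bp of the Ctsk site. Of the sites of the proteases and inhibitors 2.15% were P8-only.

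Cartilage genes also held P8-only sites. Of 27 cartilage matrix genes and chondrocyte factors 4 held 7, while 20 held 82 P0-only sites. Of the sites of this list 1.74% were P8-only and 20.3% P0-only, against 1.41% and 16.6% of all sites in or near genes. A site in Col2a1, the main collagen gene of cartilage, lay at chr15:98001883-98002121 with 26 tags in P8 library A and 29 in library B, on a high background that left a fold enrichment of 2.75 and 2.58. Col27a1, a fibrillar collagen gene of cartilage, had 18 and 19 tags at a site 698 bp from a P0 peak. Sox5, the partner of Sox6, had 2 neighbouring sites, with 8 and 7 tags in library A and 12 and 6 in library B. It also held 20 P0-only and 23 shared sites, and Sox6 held 20 and 17 beside its run. P8-only sites were thus a small part of the sites of these 2 genes, as they were of all sites in or near genes.

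The adhesion and contractile genes, which link a spread cell to its matrix, held sites in 7 of 26 genes for integrins and focal adhesions and in 6 of 33 for actin and myosin. Their median lengths were 76.6 and 27.1 kb, against 17.3 kb for all protein-coding genes. Of the sites of these lists 1.76% and 1.54% were P8-only, near the 1.41% of all sites in or near genes. Beside Itga8, a site was held by the integrin genes Itgb1, the β chain shared by most collagen and fibronectin receptors, with 9 and 15 tags, and Itgav, Itgb5 and Itgb8. From Itgb1 to Itgb8, in this order, the nearest P0 peaks were 175, 843, 840 and 187 bp away. Tln2, a talin that couples integrins to actin, had 14 and 17 tags at chr9:67571715-67572050. Tns3, a tensin of adhesion sites, had 2 sites of 15 and 19 tags in P8 library A and 18 and 24 in library B. Actg2, smooth muscle actin γ, had a site of 8 and 17 tags, 1 of the 10 that differed more than 2-fold between the libraries. Myocd, a coactivator of smooth muscle genes, had 12 in both, and its relative Mrtfa also held a site. Vcl, the vinculin gene, had 11 and 7. YAP, TAZ and TEAD genes, which read out cell spreading, held sites in 4 of 17: the kinase gene Lats2 with 21 and 19 tags at chr14:57728554-57729311, Vgll4 with 22 and 16, Yap1 with 8 and 10 and Vgll3 with 10 and 8. In this order the nearest P0 peaks were 568, 335, 5496 and 14330 bp away. Of the sites of this list 2.05% were P8-only.

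Among signalling genes, 7 of 37 TGF-β and BMP pathway genes held 9 sites. By role these were the ligand genes Inhba, an activin subunit, with 18 and 20 tags, and Tgfb2, the latency protein Ltbp1 with 9 and 11, and the receptors Bmpr1a with 12 and 11, Bmpr1b with 2 sites of 10 and 10 tags in P8 library A and 8 and 9 in library B, and Acvr1. Smad3, which carries the TGF-β signal to the nucleus, held 2 sites of 11 and 9 tags in library A and 12 and 14 in library B. The Bmpr1a site was 73 bp from a P0 peak. Of 34 Wnt pathway genes 4 held a site, namely the receptor Ryk with 20 and 18 tags at chr9:102842560-102842959, Ctnnb1, the β-catenin gene, with 10 and 10, the secreted inhibitor Frzb with 9 and 8 and the transcription factor Tcf7l2 with 10 and 9. In this order the nearest P0 peaks were 642, 3717, 3192 and 313 bp away. Growth factor receptors and ligands held sites in 5 of 29 genes. P8-only sites were 1.53% of the sites of this list, 2.05% for the TGF-β and BMP list and 0.962% for the Wnt list. Over all sites in or near genes the share was 1.41%. Egfr, the epidermal growth factor receptor, had 20 and 22 tags at chr11:16810208-16810440, with a −log10 q of 9.02 and 10.9, and a second site of 9 and 13 tags. Igf1r, the receptor of insulin-like growth factors, had 22 and 23, Fgf10 had 12 and 9, Fgfr2 had 16 and 16 and Pdgfra, a receptor of fibroblast-like cells, also held a site. From Igf1r to Pdgfra, in this order, the nearest P0 peaks were 960, 278, 856 and 475 bp away.

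The list with the most genes was that of axon guidance and cell-contact cues, with 10 of 33, but its genes were also the longest, with a median of 278 kb, and 1.69% of their sites were P8-only. Efna5, an ephrin ligand, had 12 and 14 tags, its receptor Epha3 had 2 sites of 13 and 11 tags in P8 library A and 9 in each in library B, and the semaphorin Sema3c and its receptor gene Plxna4 had 14 and 9 and 12 and 10. The Epha3 sites lay 76 and 221 bp from a P0 peak and that of Efna5 729 bp. For Sema3c and Plxna4 the gaps were 14019 and 14633 bp. Of 36 mesenchymal transcription factors 3 held a site: Pax9, a factor of the sclerotome, with 11 and 13 tags, Tcf4 with 7 and 12 and Runx1 with 7 and 6. Chemokines, cytokines and NF-κB genes held sites in 3 of 32, Lif, Tnfsf11, the RANK ligand of osteoclasts, with 9 and 10 tags, and Ccl2. In the remaining lists few genes held a site. Fos was the only gene of 19 of the AP-1, ATF and MAF family, with 33 and 31 tags at chr12:85478043-85478322, 769 bp from a gene end. Its fold enrichment was only 2.94 and 2.44, against P8-only medians of 4.59 and 4.70. Atf4, a factor of the integrated stress response, was the only gene of 27 for oxidative and metabolic stress, with 17 and 24 tags, 664 bp from a gene end. Its site had a fold enrichment of 2.87 and 3.71 and a P0 peak 329 bp away. Mdm2, the ligase that degrades p53, had 12 and 19, and Hmga2, a chromatin protein of growing mesenchyme, had 10 and 11, the 2 of 16 in the list for cell-cycle arrest and senescence. The nearest P0 peak was 3904 bp from the Mdm2 site and 317 bp from that of Hmga2. Erg was the only gene of 30 among blood, endothelial and nerve lineage markers.

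Of the 7 genes that the study names at its ATAC-seq results and Ccl7, added here as a neighbour of Ccl2, only Ccl2, a chemokine that attracts monocytes, held a P8-only site by this rule. It lay at chr11:82034583-82034750, 827 bp from the gene, with 15 tags in both P8 libraries and a P0 peak 498 bp away. Col1a1, S100a4, Fbln2, Ccl7, Ly6c1, Gstm2 and Sod3 held none. The study called its passage-specific peaks in another way, by DiffBind with limits on FDR and log2 fold change. Those limits do not require P0 peaks to be absent, so the count given here is no check of its regions. The nearest P8-only site in or near a gene was 5.39 kb from S100a4, a calcium-binding protein of motile cells, and 11.0 kb from the chemokine gene Ccl7. For Col1a1, Fbln2, Ly6c1, Gstm2 and Sod3 it was at least 511 kb away. Peaks of at least 1 P0 library lay at all of these genes, at Gstm2 of P0 library A only. At each of S100a4, Ccl7 and Sod3 lay 2 sites shared by all 4 libraries.

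Markers of the cell types were counted as peaks in or near each gene in each library. Over all genes, 85038 and 68404 sites in or near genes had a peak at P0 and 47129 and 53439 at P8, library A first. The marker counts were not adjusted for these totals, and the part of the totals in them was not tested. The 8 chondrocyte markers had 63 and 59 peaks at P0 and 40 and 55 at P8, library A first, and 7 of them had a peak in every library. Matn1, a cartilage matrix gene, had 1 and 3 peaks at P0 and no peak in either P8 library. From P0 to P8, Acan went from 14 and 8 peaks to 3 and 6, and Hapln1 from 14 and 14 to 5 and 7. Sox9 went from 5 and 5 to 4 and 4. Col2a1 rose from 4 and 5 to 7 and 8, and Col11a2 had 4 and 6 in both passages. Matn3 went from 8 and 5 to 7 and 9, and Col9a1 from 13 and 13 to 10 and 15. The 5 fibroblast markers had 17 and 16 peaks at P0 and 16 and 16 at P8. The 8 markers of blood, endothelial and nerve cells had 31 and 22 at P0 and 14 and 21 at P8, and 6 of the 8 had a peak in every library. Sox10 had none at P8, and Adgre1 had a single peak, in P8 library A. Among these markers only Col2a1 held a P8-only site, while the chondrocyte markers held 11 P0-only sites, the fibroblast markers 1 and the others 3. The fibroblast markers Col1a1, Col1a2, Col3a1, Fn1 and Postn held no P8-only site. Since 5.77% of all protein-coding genes held such a site, markers this few cannot show a lack or an excess of them.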

How the data were processed

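ATAC-seq of mouse chondrocytes at P0 and P8 had been done with 2 libraries per passage and 50 bp paired-end reads. Alignment by the authors used Bowtie2 and mm10, per the submitters' processing notes, and MACS2 called the peaks of each library on its own. Deposited values per peak are the summit pileup (signal in tags, unscaled), the fold enrichment (a ratio to the local background) and significance as −log10 p-value and −log10 q-value. A further deposited table held the authors' own comparison of the passages as log2 fold changes with p-values and FDR, and it was not used. Prefixes of the peak names separated the libraries, the passage stated for each peak grouped them, and 0 columns of values per library were left unused.

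From these peaks, sites were merged with an overlap of at least 1 bp and assigned to every protein-coding gene of the RefSeq table (GRCm38.p6) that they overlapped or lay within 1 kb of. This table carries no strand. Strand and start sites came from the promoter sequence table, which held 79.9% of the genes, so a split of gene ends into starts and 3′ ends was void and is not given. For matched depth, the pileup and background of each peak were scaled down to those of the shallowest library, and peaks with a −log10 p of at least 3.38 were kept. The motif search around summits that had been planned was replaced by promoter windows, since no genome was used, and windows of chromosome 18 were not used. Shares have 95% Wilson intervals. Values per library were compared by exact permutation tests, and read counts per site were not tested anew. Merging, gene assignment and classes were tested on simulated data (2000 sites) and recovered in 100% of cases.

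The sites, gene lists, motifs and tests were chosen with earlier results of these data known. Genes named are those of the 10 strongest sites by mean −log10 q, the 10 genes with the most sites (ties by shorter length), up to 4 genes per list and other members of a list by name, the 7 genes named by the study at its ATAC-seq results with Ccl7, sites on promoter windows, the 10 strongest at gene ends and sites at the limits of the rule. The runs, the microRNA and the genes without a P0 peak were chosen after their values were seen. A few genes that this rule selects are not reported here. Tools were Python 3.11.15, pandas 2.3.3, scipy 1.17.1, numpy 2.4.6 and matplotlib 3.10.9.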

Additional observations from a re-analysis of the deposited data

How the results depend on the processing

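Of 62 alternatives over the values above, 41 left a value within its error or a count within 1.5 times, 21 moved it and 0 turned its direction. Most of the values were counts or shares without a sign, so the 0 speaks mainly to the differences by library. The share of P8-only sites at gene ends was 7.79% when peaks up to 100 bp apart were merged, 4.93% with a gap of at least 1 kb to P0 peaks, 14.7% with genes of every biotype, and 3.95% and 15.4% with a limit of 0.5 and 3 kb to the end. Relative to shared sites, the signal was 0.677 as fold enrichment against 0.557 as pileup. With each library left out in turn, the number of P8-only sites was 1661 to 5414, their genes 1443 to 3633 and the gene-end share 10.7 to 12.7%. The differences by library were -5.81 to -4.29 percentage points at gene ends and -36 to -30 bp in width. After seeing the data the same was done for the listed genes with a P8-only site (81 to 168) and for the windows with TGANTCA (23.8 to 52.9%), and windows of protein-coding genes alone gave 72.7%. Stricter thresholds moved the numbers of sites, genes and listed genes, the gene-end shares, the widths and the windows by at most 1.5 times, and so did matched depth where it was run, which was not for the listed genes, the windows or the signal. The causes were not tested. The search of whole sites for motifs was not run, since no genome was used. No paired analysis was possible because the peak names carry no replicate number. Depth limits the list of P8-only sites in both directions, since the P8-only sites had a median of 10 tags and a site under the limit in P0 counts as absent.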

Other observations

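On chromosome X there were 31 P8-only sites, 0.654 per Mb of gene, while the autosomes had 1.06 to 1.68 per Mb. P0-only sites were likewise sparse there, at 8.87 per Mb against 14.3 to 18.1 per Mb on the autosomes. As a share of all sites in or near genes on the same chromosome, P8-only sites made up 1.38% on chromosome X and 1.11 to 1.73% on the autosomes, so chromosome X lay within the range of the others. Chromosome 10 had the lowest share and chromosome 9 the highest of the 20 chromosomes.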
